A study of Mus musculus with 70 samples.

Results

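The cell cycle and DNA replication module comprised 55 mouse genes that drive or mark cell division, from the G1 cyclins through the replication machinery to the mitotic spindle. The genes were chosen by name and not by their measured values, though with earlier results of these data known. Each was read from 1 array probe, the brightest of its probes over all arrays. They were 55 of the 21154 gene symbols on the arrays. Expression was measured on single-colour Agilent mouse arrays in RENCA, a mouse renal adenocarcinoma cell line with wild-type VHL, that carried GFP from a lentiviral vector. The parental cells (P0) had not been passaged in mice. All other cells had gone through 1 to 6 cycles (P1 to P6) of injection into female BALB/c mice, 6 weeks old, followed by digestion of the tumour tissue. Per the study's methods, the cells were then kept in culture until cells without GFP were no longer seen, and purity was checked by microscopy or flow cytometry.

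The route of passage was set by where cells were put in and taken out. KPT cells were injected under the kidney capsule and recovered from the primary kidney tumour. K-LM cells were injected at the same site and recovered from lung metastases, and T-LM cells were injected into the tail vein and recovered from lung metastases. The 65 RNA samples on 70 arrays were 2 of P0, then from P1 to P6 in turn 5, 2, 2, 3, 5 and 5 of KPT, 5, 2, 3, 4, 6 and 4 of T-LM, and 1, 1, 5, 3, 4 and 3 of K-LM. All groups share the parental line, the GFP vector and the mouse strain. The labels do not say which samples came from separate mice, so p-values measure the spread between these samples, which may be technical.

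The cell cycle is driven by ordered waves of transcription. In G1, D-type cyclins and their kinases phosphorylate the retinoblastoma protein and release E2F factors, which switch on genes that license and copy DNA, such as the MCM helicase subunits, the GINS complex and ribonucleotide reductase. Later, B-MYB and FOXM1 act with the MuvB complex on mitotic genes, among them cyclin B, the Aurora and Polo kinases, the spindle checkpoint and the kinetochore. Dividing tumour cells express most of these genes, and CDK inhibitors such as p21 (Cdkn1a) restrain the kinases.

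A level here is the log2 processed signal of a probe minus the 75th percentile of its array, taken over the 11289 probes well above background on every array, and a difference of 1 is a 2-fold difference. Levels were compared only within a gene. The share of probes well above background ranged from 25.1% to 55.1% between arrays, with a median of 32.9%. The arrays also differed in the RNA index, the mean level of 17 long mRNAs minus that of ribosomal protein mRNAs, whose group means ran from -8.36 in K-LM P5 to -5.65 in T-LM P1. P0 replicates 1 and 2 and KPT P6 replicates 1, 2 and 4 were hybridised a second time. These 5 repeat arrays and all 3 K-LM P6 arrays lie on 1 slide (the late slide), whose slide, scan day and software version cannot be told apart. T-LM P1 replicate 1, the sample whose title names no route, stood apart from the other 4 samples of its group in Ccnd1. It read -5.95 there, and the other 4 lay between -0.84 and -0.12. In Rrm2 it read 2.32, where P0 read 2.72 and 2.3 and the other 4 lay between 0.57 and 1.75. In E2f8 it read -1.74, where P0 read -1.97 and -1.81 and the other 4 lay between -2.92 and -2.5. The outlier check given at the end flagged its Ccnd1 and not its Rrm2 or E2f8. In Ccnb1, Aurka and Cdc20 it lay within the range of the other 4. Calls of the chosen probes that rest on T-LM P1 are also given without it. Its values had been seen, so changes of Ccnd1, Rrm2 and E2f8 without it are a description and not support.

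Of 6 renal epithelial markers, 3 to 6 were above background in each sample, and Krt8, Krt18 and Pax8 were measured in every group. Because the samples were bulk cultures, fewer cells of a type and less RNA per cell cannot be told apart. Of 5 fibroblast markers (Pdgfra, Pdgfrb, Dcn, Lum and Dpt), 0 were above background in P0, where their summed linear level was 0.0194 to 0.0229. The sum was 0.105 to 1.02 in KPT P1, 0.411 to 1.75 in T-LM P1, 0.285 to 0.416 in KPT P6, 0.824 to 1.8 in T-LM P6 and 0.315 to 0.736 in K-LM P6. In these P6 groups 2 to 4 of the 5 markers were above background and Dpt was not. The summed level of 10 macrophage markers was 2.2 to 2.9 in P0, 4.68 to 6.61 in KPT P1, 4.07 to 6.11 in T-LM P1, 3.5 to 4.9 in KPT P6, 3.59 to 4.17 in T-LM P6 and 2.76 to 4.14 in K-LM P6. Of 5 lung epithelial markers, 0 were above background in P0 (summed level 0.0258 to 0.0264), 3 to 4 in T-LM P6 (0.204 to 0.873) and 1 in K-LM P6 (0.0618 to 0.101). These are marker levels in cultures purified as above, and their part in the results below was not tested.

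Promoter sequences were matched to 43 of the 55 members, in 44 windows, from RefSeq on GRCm38.p6. Those of 4 genes are printed, as examples of the members called between P1 and P6 or between the P6 routes. Each line gives the 250 bases before the start site, 5′ to 3′. Capitals mark CCAAT boxes (CCAAT), cell cycle homology regions (CHR, TTTGAA) and E2F motifs (TTTCGCGC, TTTGGCGC, TTTCCCGC or TTTGCCGC), each searched on both strands and counted where they overlap. All 4 genes lie on the minus strand, at chr4:118437344-118437593 for Cdc20, chr13:100786487-100786736 for Ccnb1, chr2:5012792-5013041 for Mcm10 and chr5:151651209-151651458 for Rfc3.
Cdc20: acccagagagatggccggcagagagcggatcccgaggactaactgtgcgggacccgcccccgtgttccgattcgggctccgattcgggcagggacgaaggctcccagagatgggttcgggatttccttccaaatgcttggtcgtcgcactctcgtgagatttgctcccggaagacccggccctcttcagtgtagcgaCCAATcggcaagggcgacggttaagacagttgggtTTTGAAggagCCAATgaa
Ccnb1: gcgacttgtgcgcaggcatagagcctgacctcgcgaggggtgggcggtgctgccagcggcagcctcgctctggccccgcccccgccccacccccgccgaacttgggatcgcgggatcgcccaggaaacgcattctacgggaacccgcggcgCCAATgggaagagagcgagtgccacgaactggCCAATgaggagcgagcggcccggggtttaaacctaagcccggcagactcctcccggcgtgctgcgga
Mcm10: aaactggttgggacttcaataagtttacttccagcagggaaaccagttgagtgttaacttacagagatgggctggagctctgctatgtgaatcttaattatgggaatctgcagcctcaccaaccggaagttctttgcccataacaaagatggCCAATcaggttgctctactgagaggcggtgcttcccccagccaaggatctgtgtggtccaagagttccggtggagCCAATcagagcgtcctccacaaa
Rfc3: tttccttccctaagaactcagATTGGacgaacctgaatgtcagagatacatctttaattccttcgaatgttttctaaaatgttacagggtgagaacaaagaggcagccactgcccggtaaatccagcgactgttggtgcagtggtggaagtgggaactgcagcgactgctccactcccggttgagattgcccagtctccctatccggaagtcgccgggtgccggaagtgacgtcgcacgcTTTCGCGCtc

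The printed window held 2 CCAAT boxes and 1 CHR in Cdc20, the activator of the anaphase-promoting complex, and 2 CCAAT boxes in Ccnb1, the mitotic cyclin B1. It held 2 CCAAT boxes in Mcm10, a replication initiation factor, and 1 E2F motif and 1 CCAAT box in Rfc3, a subunit of the clamp loader. Of the other members called in those comparisons, Aurka, Cdc6 and Mcm2 held at least 1 of these motifs in the same 250 bases. E2f1, Mad2l1, Ndc80, Rfc4 and Tk1 held 0, and no promoter was matched for Gins1. Over windows that run on to 50 bases past the start, a CCAAT box was present in 72.7% of the member promoters and in 37.4% of all 32851 promoters of the same length. A CHR was present in 40.9% of member promoters against 17.9%, and an E2F motif in 22.7% against 2.26%. The E2F motif lay in 6 of 10 windows of licensing genes and 0 of 6 of spindle checkpoint genes. The CHR lay in 4 of 5 windows of G2 to M cyclins and kinases, 4 of 6 of checkpoint genes and 0 of 4 of polymerase and clamp genes. These are matches of letters, given as a description.

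Of the 55 members, 52 passed the filter on dim probes and were tested. The probes of Ccne2 (cyclin E2), Aurkb (the kinase of the chromosomal passenger complex) and Cenpf (a kinetochore protein) were not well above background on at least 69 of the 70 arrays. The median SD within groups was 0.32 over the members and 0.3 over the 11289 probes detected on all arrays. The median range of the group means was 1.07 and 1.03. Ccnd1 (cyclin D1, the G1 cyclin that activates CDK4 and CDK6) had the widest range of group means, 4.29, between P0 as the lowest and the single K-LM P1 sample as the highest. Ranges of the other members went from 0.53 for Ube2c, the ubiquitin-conjugating enzyme of the anaphase-promoting complex, to 2.29 for Mki67, the antigen Ki-67.

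The first comparison asked how the module stood after 6 cycles in mice against the parental cells. Ccnd1 was higher in the P6 cells of all 3 routes, and no other tested member passed the threshold of adjusted p at or below 0.01 (limma, Benjamini-Hochberg over all tested probes). In P0, Ccnd1 read -4.48 and -3.2 on the first arrays and -4.28 and -2.92 on the repeats. In KPT P6 it read -1.89, -1.57, -1.54, -1.27 and -1.06, in T-LM P6 -2.29, -0.98, -1.6 and -1.97, and in K-LM P6 -0.84, -1.12 and 0.01. Every P6 sample was above both P0 samples, which themselves lay over 1 log2 unit apart.

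Ccnd1 rose by 2.38 in KPT (SE 0.34, 95% interval 1.66 to 3.1, 5.19-fold, adjusted p = 0.000191), by 2.13 in T-LM (SE 0.5, 1.09 to 3.17, 4.37-fold, adjusted p = 0.00648) and by 2.96 in K-LM (SE 0.57, 1.79 to 4.14, 7.8-fold, adjusted p = 0.00123). These 3 comparisons share the P0 samples. Without P0 replicate 1 Ccnd1 passed in none of them. The call in T-LM was also lost without T-LM P6 replicate 2 or 3, and that in K-LM without K-LM P6 replicate 3. On the late slide alone, which holds the repeats of P0 and all K-LM P6 arrays, the Ccnd1 change in K-LM was 2.95.

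**Figure D1:**
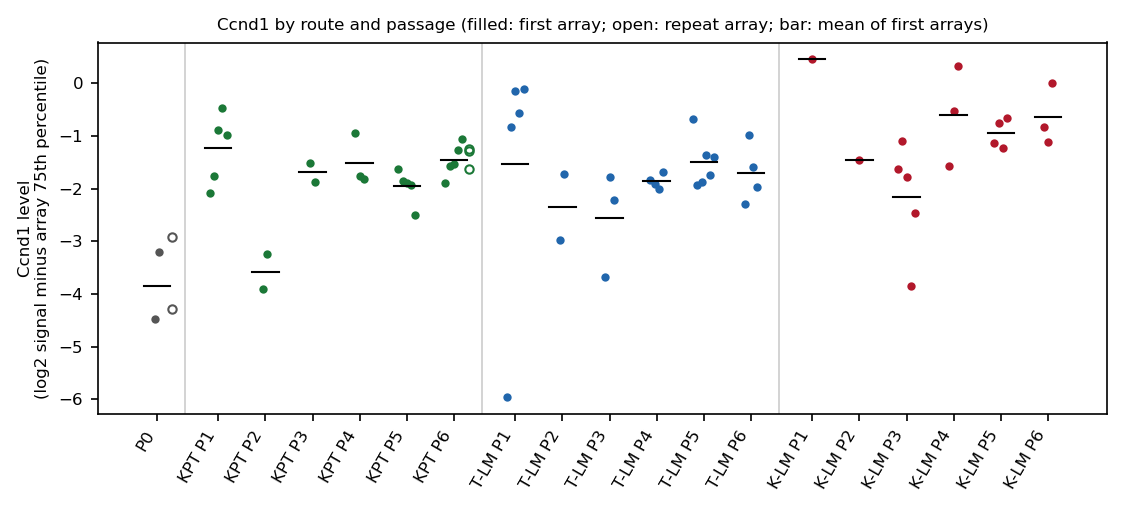
Level of Ccnd1 (vertical axis, log2 signal relative to the 75th percentile of the array) in each sample of the 19 groups (horizontal axis). Filled points are first arrays, open points are repeat arrays on the late slide and bars are group means of first arrays. P0 lies at -4.48 and -3.2, 1 T-LM P1 sample at -5.95, and all P6 samples at -2.29 or above.

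The members called were 1 of 52 in each route, where 3.88% of all probes were called for KPT, 7.31% for T-LM and 4.83% for K-LM. In the same order, the median change of the members was -0.06, -0.19 and -0.32, beside -0.01, 0 and 0 over all tested probes. In K-LM, 45 of 52 members had a negative change, among them all 12 licensing genes, all 5 polymerase and clamp genes and all 4 nucleotide supply genes, and 13 members had an unadjusted p under 0.05. The corresponding counts of negative changes were 29 in KPT and 34 in T-LM.

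Rrm2, the small subunit of ribonucleotide reductase, was the member with the next smallest adjusted p in T-LM and K-LM. It read 2.72 and 2.3 in P0, 1.94, 1.82, 2, 2 and 2.03 in KPT P6, 1.81, 2.01, 1.41 and 1.64 in T-LM P6 and 1.32, 1.52 and 1.54 in K-LM P6. All P6 samples were below both P0 first arrays, but the changes of -0.55, -0.79 and -0.89 had adjusted p of 0.265, 0.0504 and 0.0147 (limma). The K-LM P6 readings come from the late slide and these P0 readings from other slides. In the 5 repeated samples, Rrm2 on the late slide minus the first array averaged -0.16 (-0.29 to -0.03). Tyms, thymidylate synthase, gave -0.42, -0.59 and -0.74, with adjusted p of 0.0762 in T-LM and 0.0944 in K-LM.

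Pole, the catalytic subunit of polymerase epsilon, read -0.38 and -0.07 in P0 and -1.04, -0.72, -1.2 and -1.16 in T-LM P6, a change of -0.8 with adjusted p = 0.302 (limma). E2f8, an E2F that represses transcription, read -1.97 and -1.81 in P0 and -2.89, -2.41, -2.52 and -2.91 in T-LM P6 (change -0.79, adjusted p = 0.177, limma). Neither gene's groups overlapped in T-LM. Kif11, the mitotic kinesin Eg5, read -3.62 and -3.71 in P0 and -4.26, -4.29 and -4.41 in K-LM P6 (change -0.9, adjusted p = 0.12, limma). These Kif11 readings also lie on different slides, and its repeats on the late slide minus first arrays averaged 0.25 (-0.3 to 0.66). Cenpa, the centromeric histone H3 variant, pointed the other way, with -0.77 and -0.09 in P0 and 0.55, 0.5, 0.32 and 0.12 in T-LM P6 (change 0.8, adjusted p = 0.186, limma).

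Further members with the smallest adjusted p were Ccne1 (cyclin E1), Ccna2 (cyclin A2), Mcm2 and Ccnb1 in KPT, with changes of -0.32, -0.42, 0.38 and -0.29. In T-LM they were E2f1 (an activating E2F), Ube2c, and Top2a (topoisomerase II alpha), at -0.54, -0.36 and -0.5. In K-LM they were Mad2l1 (the checkpoint protein MAD2), Ccne1, Rfc4 (clamp loader), Gins1 (GINS complex), Ccna2 and Mcm5 (MCM helicase), at -0.62, -0.65, -0.6, -0.45, -0.66 and -0.73. None of these passed the threshold. With K-LM P6 and P0 compared on the late slide alone, 12 members passed, 11 of them lower, among them Mcm10 at -0.73, Rrm2 at -0.89, Kif11 at -0.9 and Ndc80 (kinetochore) at -0.61. The share of all probes called on that slide alone is not given here, so the 12 cannot be set against a background.

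**Figure D2:**
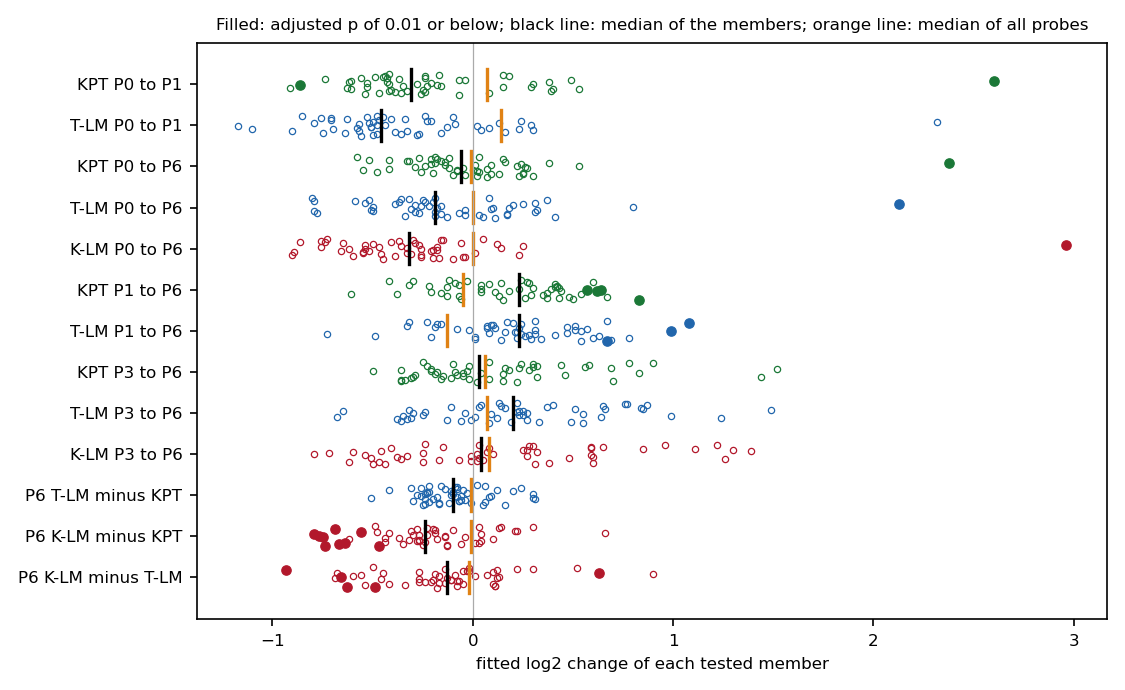
Log2 change (horizontal axis) of each of the 52 tested members in 13 comparisons (vertical axis). Filled points have adjusted p at or below 0.01, the black line is the median of the members and the orange line the median of all tested probes. The filled points number 9 in the K-LM against KPT comparison at P6 and 4 and 3 between P1 and P6 in KPT and T-LM, and single points, of Ccnd1, stand to the right of all others between P0 and P6.

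The first cycle in mice was compared with P0 after the levels had been seen. Ccnd1 read -2.08, -1.77, -0.89, -0.47 and -0.99 in KPT P1, and rose by 2.6 (SE 0.39, 95% interval 1.78 to 3.42, 6.06-fold, adjusted p = 0.000354, limma). In T-LM P1, 4 samples read -0.84, -0.15, -0.57 and -0.12, and replicate 1 read -5.95, below both P0 samples. With that sample the T-LM change was 2.32 (SE 0.99, adjusted p = 0.141, limma), and without it 3.42 (SE 0.47, adjusted p = 3.93e-05, limma). The latter p-value is no support, since the low Ccnd1 of that sample is what set it apart.

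The mitotic cyclin Ccnb1 was lower in P1. It read 0.35 and 0.24 in P0 and -0.46, -0.27, -0.92, -0.56 and -0.61 in KPT P1, a change of -0.86 (SE 0.19, 95% interval -1.26 to -0.45, adjusted p = 0.00716, limma), and -0.99, -1.03, -0.44, -0.79 and -1.12 in T-LM P1 (change -1.17, SE 0.3, adjusted p = 0.0188, limma). No P1 sample reached the P0 samples. The other 2 probes of Ccnb1, also well above background on all 70 arrays, gave -0.18 and -0.35 in KPT and did not pass. For Mad2l1 the second probe passed in KPT at -1.15 (adjusted p = 0.00325, limma), where the brightest probe gave -0.42.

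In KPT P1, 2 of 52 members passed, 1 in each direction, where 4.41% of all probes were called. In T-LM P1, 0 of 52 members passed by limma while 18 had an unadjusted p under 0.05, where 2.56% of all probes were called. Without T-LM P1 replicate 1, 3 passed, Ccnd1, Rrm2 (-1.33, adjusted p = 0.00273, limma) and Mcm10 (-0.92, adjusted p = 0.00774, limma). The sample had been set apart with its Ccnd1 and Rrm2 seen, and the share of all probes called without it is not given here. This count is therefore a description only. Negative changes numbered 40 of 52 in KPT and 42 of 52 in T-LM, with medians of -0.31 and -0.46 beside 0.07 and 0.14 over all probes. Of all tested probes, 55.3% and 59.4% had a positive change. Without T-LM P1 replicate 1 the T-LM count was also 42 of 52. The mean RNA index was -6.88 in P0, -5.82 in KPT P1 and -5.65 in T-LM P1, and with the index as a covariate 0 members passed in KPT and 9 in T-LM. The share of all probes called with the covariate is not given here, so these 2 counts cannot be set against a background. All 12 licensing genes in T-LM and 11 of 12 in KPT were negative. Among them, Mcm5 gave -0.42 and -0.85 and Mcm10 -0.79 in T-LM (adjusted p of 0.0448 and 0.0415 there). Ccne1 (-0.74, adjusted p = 0.0103) and Rrm2 (-0.91, adjusted p = 0.0194) came closest to the threshold in KPT, and Pcna (the sliding clamp), Cdk1 (the mitotic kinase) and Birc5 (survivin) gave -0.61, -0.61 and -0.47. Without P0 replicate 1, 0 members passed in KPT, and without KPT P1 replicate 3, 4 or 5, 1 passed.

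Between P1 and P6 a few members rose. In KPT these were Tk1 (thymidine kinase), Gins1, Ccnb1 and Mad2l1, or 4 of 52 (7.69%) where 11.6% of all tested probes were called and 5.30% of all tested probes were called as higher. In T-LM they were Cdc20, Aurka (Aurora A kinase) and Ccnb1, or 3 of 52 (5.77%) where 9.28% of all tested probes were called and 3.83% of all were called as higher. No member passed in the other direction. The calls in KPT numbered 0 without KPT P1 replicate 3, 4 or 5 or KPT P6 replicate 1, 1 without KPT P6 replicate 3 or 5 and 2 without KPT P6 replicate 2. Those in T-LM numbered 1 without T-LM P6 replicate 2 or 4. The P1 and P6 samples used here also serve in the comparisons with P0.

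Gins1 read -1.59, -1.99, -1.95, -2.16 and -1.87 in KPT P1 and -0.98, -1, -1, -1.31 and -1.09 in KPT P6, with no overlap, and rose by 0.83 (SE 0.21, 95% interval 0.4 to 1.27, 1.78-fold, adjusted p = 0.00737, limma). Its P0 samples read -1.44 and -1.3. Tk1 read 0.51, 0.6, 0.3, 0.06 and 0.28 in KPT P1 and 1.07, 1.09, 0.86, 0.94 and 0.87 in KPT P6, and rose by 0.62 (SE 0.15, 1.53-fold, adjusted p = 0.0048, limma). Its P0 samples read 0.96 and 0.44.

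Ccnb1 in KPT P6 read 0.18, -0.2, -0.09, 0.07 and 0.07, above every KPT P1 sample (rise 0.57, SE 0.15, 1.48-fold, adjusted p = 0.00851, limma), and in T-LM P6 0.07, 0.37, -0.04 and 0.05 (rise 0.99, SE 0.24, 1.98-fold, adjusted p = 0.00645, limma). Its other 2 probes gave 0.17 and 0.13 in KPT and 0.48 and 0.35 in T-LM, without passing. Mad2l1 rose by 0.64 in KPT (1.56-fold, adjusted p = 0.00977, limma), from -0.59, -0.73, -1.36, -1.24 and -0.99 to -0.22, -0.64, -0.23, -0.35 and -0.24, and the groups overlapped.

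Cdc20 read 0.67, 0.51, 0.73, 0.35 and 0.09 in T-LM P1 and 1.47, 1.79, 1.36 and 1.61 in T-LM P6, with no overlap, and rose by 1.08 (SE 0.22, 95% interval 0.62 to 1.55, 2.12-fold, adjusted p = 0.00206, limma). In KPT it went from 0.86, 1.04, 0.71, 0.37 and 0.67 to 1.18, 1.24, 1.1, 1.62 and 1.5, a change of 0.6 with adjusted p = 0.012 (limma). In P0 its spot was flagged on the first array of replicate 2, so that P0 rests on 1 first array at 1.18, with repeats at 1.33 and 1.84. Aurka read -0.04, -0.29, 0.15, 0.02 and -0.24 in T-LM P1 and 0.57, 0.56, 0.59 and 0.63 in T-LM P6, and rose by 0.67 (SE 0.15, 1.59-fold, adjusted p = 0.00289, limma). Its P0 samples read 0.26 and 0.7.

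Without T-LM P1 replicate 1, the T-LM calls were Cdc20 (1.14, adjusted p = 0.00254), Aurka (0.68, adjusted p = 0.00465) and Cdc6 (0.93, adjusted p = 0.0051), a loader of the helicase. Ccnb1 then gave 0.96 (adjusted p = 0.0136, limma) and did not pass. The share of all probes called in that fit is not given here. The next members in KPT were Cdc6, Rfc4, Ccne1, Birc5 and Mcm10, with changes of 0.67, 0.48, 0.41, 0.43 and 0.43. In T-LM they were Rfc3, Mad2l1, Mcm5, Gins1, Mcm10 and Rfc4, at 0.69, 0.54, 0.67, 0.54, 0.57 and 0.6. The second probe of Rfc4 passed in T-LM at 0.59 (adjusted p = 0.00337, limma).

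Over the module, 36 of 52 members were positive in KPT and 41 of 52 in T-LM, with a median of 0.23 in each, beside -0.05 and -0.13 over all probes. Of all tested probes, 45.7% and 40.7% were positive. Without T-LM P1 replicate 1 the T-LM count was 43 of 52. Members varied together within groups (median correlation 0.26), so their signs are not independent. The licensing genes were positive in 11 of 12 and 12 of 12, and all 4 tested kinetochore genes were positive in each route. The proliferation markers did not pass, with Mki67 at -0.61 in KPT (adjusted p = 0.126, limma) and -0.49 in T-LM, and Top2a at 0.04 and -0.02. Without T-LM P1 replicate 1 the T-LM values were -0.31 and 0.13. The RNA index of these groups also differed, at -5.82 in KPT P1, -6.5 in KPT P6, -5.65 in T-LM P1 and -6.71 in T-LM P6. With the index as a covariate, 0 members passed in KPT and 8 in T-LM, again without a share of all probes to set beside them.

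**Figure D3:**
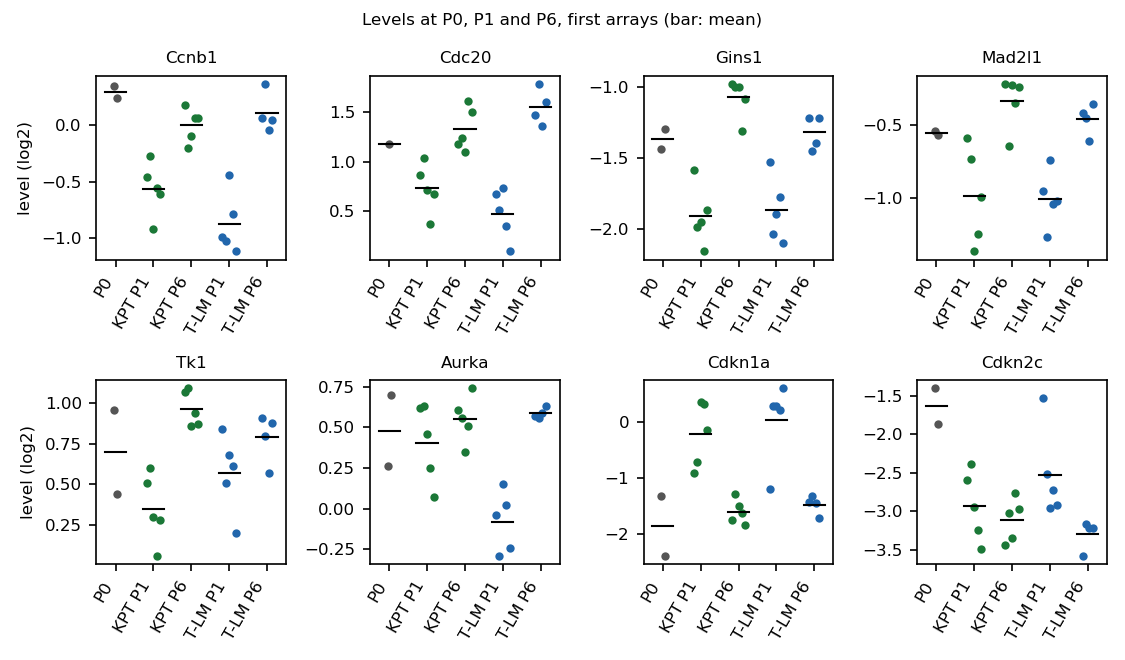
Levels of 6 members and 2 CDK inhibitors (vertical axes, log2 signal relative to the 75th percentile of the array) in each sample of P0, KPT P1 and P6 and T-LM P1 and P6, first arrays. Bars are group means, and Cdc20 has 1 P0 array. Gins1 in KPT and Cdc20 and Aurka in T-LM show P6 samples above all P1 samples, and Cdkn1a has all P6 samples of KPT and T-LM at -1.28 or below.

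From P3 to P6, 0 of 52 members passed by limma for KPT, T-LM or K-LM, where 0.715%, 7.0% and 3.53% of all probes were called, and 8, 11 and 16 members had an unadjusted p under 0.05. The smallest adjusted p were 0.0295 for Mki67 in KPT, 0.0117 for Cenpe (a kinetochore motor) in T-LM and 0.0121 for E2f1 in K-LM. Mki67 read -1.22 and -1.46 in KPT P3 and -0.6, -0.13, 0.23, 0.59 and 0.42 in KPT P6. In T-LM it read -2.42, -0.19 and -1.12 in P3 and -0.17, 0.35, 0.14 and -0.36 in P6, and in K-LM -1.32, -0.54, -0.61, -2.65 and -2.58 in P3 and -0.02, -0.42 and -0.43 in P6. The groups did not overlap in KPT and K-LM and overlapped in T-LM.

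The Mki67 changes of 1.44, 1.24 and 1.26 were 0.09, 0.23 and 0.02 with the RNA index as a covariate. Those of Cenpe, 1.52, 1.49 and 1.39, were 0.38, 0.95 and 0.52, and those of Foxm1 (a mitotic transcription factor), 0.78, 0.76 and 0.96, were 0.17, 0.1 and 0.02. Pole in KPT changed by 0.9 and by 0.06 with the index. The mean RNA index was -8.21, -7.78 and -8.14 in the P3 groups of KPT, T-LM and K-LM. Mad2l1 in K-LM (-0.79, adjusted p = 0.0131, limma), Ccnb2 (cyclin B2) and Rrm2 in T-LM (-0.65 and -0.68) were negative over the same steps. Without replicate 3 of the P3 group, 5 members passed for each of T-LM and K-LM, and without K-LM P3 replicate 1 or 2, 1 passed in K-LM. The shares of all probes called in these fits are not given here, so the counts cannot be set against a background.

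**Figure D4:**
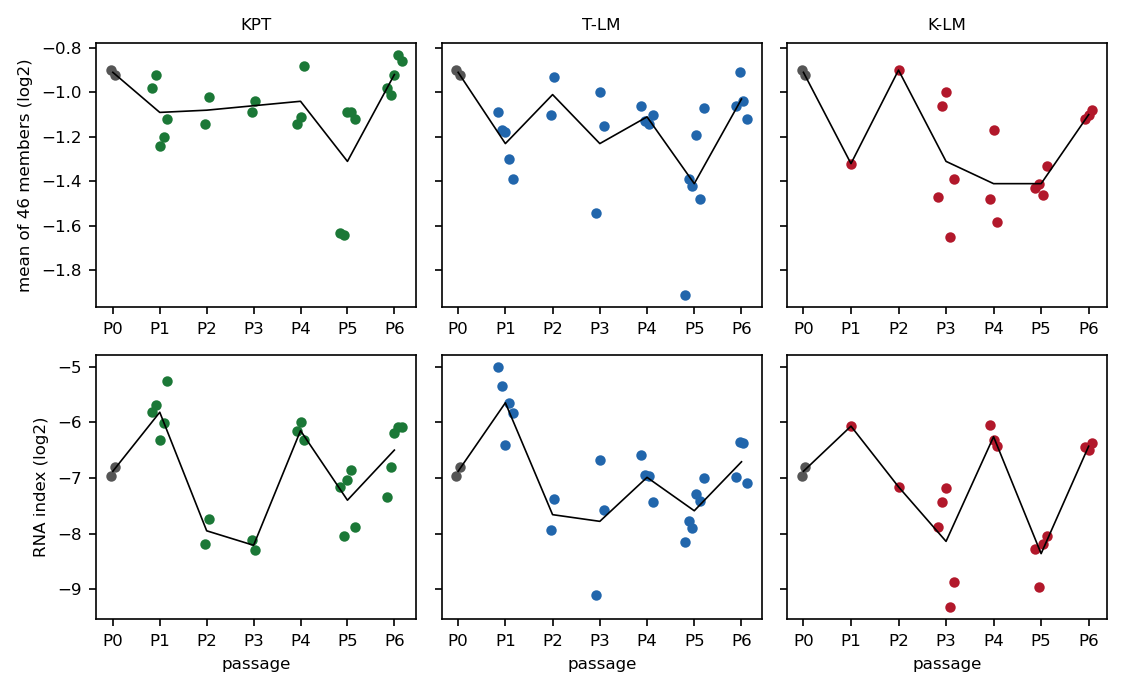
Mean level of the 46 members with a value on every array (upper row) and RNA index (lower row), both in log2 units, against passage from P0 to P6, with 1 column of panels for each route. Points are samples and lines join group means. The group means of the members stay between -1.41 and -0.9, while the RNA index of the P3 groups is -7.78 or lower.

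At P6 the routes were compared with each other. K-LM was lower than KPT in 9 of 52 members (17.3%) and higher in 0, where 16.0% of all tested probes were called and 9.80% of all tested probes were called as lower. K-LM was lower than T-LM in 4 members and higher in 1 (9.62%), where 11.9% of all tested probes were called, made up of 7.71% lower and 4.22% higher. T-LM and KPT differed in 0 of 52 members by limma, where 11.5% of all probes were called, and 6 members had an unadjusted p under 0.05. Without T-LM P6 replicate 3, 1 member passed between T-LM and KPT, given without the share of all probes. Cdc20, Gins1, Mad2l1 and Rfc3 were called in both K-LM comparisons, which share the K-LM samples, and made up 44.4% of the 9 and 80% of the 5.

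Replication initiation genes made up 4 of the 9 members lower in K-LM than in KPT, and 11 of the 12 tested were negative. Gins1 read -1.8, -1.78 and -1.92 in K-LM P6, against -1.31 to -0.98 in KPT P6 (values above) and -1.22, -1.45, -1.4 and -1.22 in T-LM P6, with no overlap, and was lower by -0.74 (SE 0.1, 95% interval -0.96 to -0.52, adjusted p = 6.04e-05, limma) against KPT and by -0.49 (SE 0.12, adjusted p = 0.00786, limma) against T-LM. Mcm10 read -1.88, -1.6 and -1.62 in K-LM P6 and -1.01, -0.73, -0.89, -1.03 and -0.62 in KPT P6 (change -0.79, SE 0.14, adjusted p = 0.000451, limma). In T-LM P6 it read -1.18, -1.23, -0.92 and -0.98 and the difference, -0.56, had adjusted p = 0.0207 (limma).

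Mcm2 (-0.56, adjusted p = 0.00387) and Cdc6 (-0.64, adjusted p = 0.00916) were the other 2 initiation genes lower in K-LM than KPT by limma. The K-LM readings of Mcm2 were -1.14, -0.92 and -0.92, against -0.78, -0.73, -0.69, -0.61 and -0.43. Those of Cdc6 were -4.33, -4.26 and -4.27, against -3.86, -3.68, -3.74, -3.18 and -3.4. The second probe of Cdc6 gave -0.24 (adjusted p = 0.45, limma). The groups did not overlap in either gene.

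The clamp loader subunits followed. Rfc4 read 0.19, 0.18 and 0.29 in K-LM P6 and 1.21, 1.18, 1.08, 0.52 and 0.93 in KPT P6 (change -0.67, SE 0.15, adjusted p = 0.00267, limma). Rfc3 read -2.56, -2.3 and -2.32 in K-LM P6, -2, -2.17, -1.98, -2.07 and -2.37 in KPT P6 and -1.97, -1.82, -1.93 and -2.08 in T-LM P6. It was lower by -0.47 against KPT (adjusted p = 0.00831, limma, the groups overlapping) and by -0.63 against T-LM (adjusted p = 0.00409, limma, no overlap). All 4 nucleotide supply genes were negative against each of the other routes and none passed, with Tk1 at -0.44 (adjusted p = 0.0129, limma) against KPT.

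Among checkpoint and kinetochore genes, Mad2l1 read -0.95, -0.88 and -0.7 in K-LM P6, -0.22, -0.64, -0.23, -0.35 and -0.24 in KPT P6 and -0.42, -0.45, -0.61 and -0.36 in T-LM P6. It was lower by -0.77 (SE 0.12, adjusted p = 0.00011, limma) and by -0.66 (SE 0.14, adjusted p = 0.00207, limma), though its other probes gave -0.35 and -0.68 against T-LM without passing. Cdc20 read 0.65, 0.82 and 0.96 in K-LM P6, below every KPT and T-LM P6 sample, with changes of -0.69 (adjusted p = 0.00358) and -0.93 (SE 0.19, adjusted p = 0.00184, limma). Ndc80 read -3.34, -3.25 and -3.34 in K-LM P6 and -2.58, -3.1, -2.84, -2.63 and -3.12 in KPT P6 (change -0.75, SE 0.15, adjusted p = 0.00138, limma).

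E2f1 was the 1 member higher in K-LM than in T-LM. It read -0.48, -0.36 and -0.53 in K-LM P6, -1.49, -1.15, -0.9 and -1.2 in T-LM P6 and -0.87, -0.64, -0.58, -0.9 and -0.92 in KPT P6, and the K-LM and T-LM samples did not overlap (change 0.63, SE 0.16, 1.55-fold, adjusted p = 0.00708, limma). Against KPT, T-LM gave -0.42 with adjusted p = 0.0135 (limma). The next members between T-LM and KPT were Gins1, Top2a, Pola1 (polymerase alpha), Mcm6, Ccnb2, Rrm2, Cdk2 (the S-phase kinase) and Mcm10, at -0.25, -0.28, -0.31, -0.24, -0.24, -0.24, -0.51 and -0.23, and Bub1b (the checkpoint kinase BUBR1) at 0.31.

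All K-LM P6 arrays lie on the late slide, and the fit carried a term for it, estimated from the 5 repeat arrays. On that slide alone, K-LM against the 3 repeated KPT P6 samples gave 7 members lower, Cdc6 at -0.64, Mcm5 at -0.46, Mcm10 at -0.78, Gins1 at -0.73, Rfc4 at -0.65, Mad2l1 at -0.71 and Ndc80 at -0.74. That count too is given without the share of all probes called on the slide. As means over the 5 repeated samples, the repeat arrays differed from the first arrays by a median of 0.1 over the 52 detected members and 0.13 over all detected probes. The largest such mean was 0.31, in Mad2l1, and a single sample reached 0.95, in Ttk (the checkpoint kinase MPS1). Without K-LM P6 replicate 1, 4 members passed against KPT and 0 against T-LM, and without replicate 2, 4 and 3. Against T-LM, 3 members passed without K-LM P6 replicate 3 or T-LM P6 replicate 1 or 2. The counts with a sample left out are also given without the share of all probes.

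**Figure D5:**
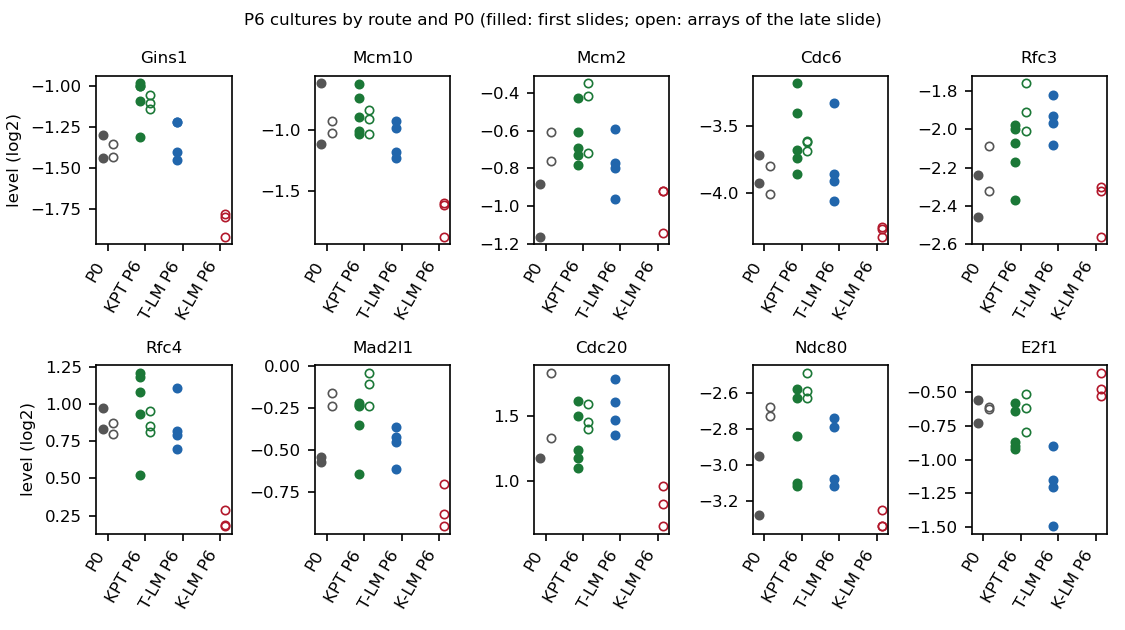
Levels of 10 members (vertical axes, log2 signal relative to the 75th percentile of the array) in P0 and in KPT, T-LM and K-LM P6. Points are arrays, filled for the first slides and open for the late slide, on which all K-LM P6 arrays lie. K-LM lies below KPT for Gins1, Mcm10, Mad2l1, Cdc20 and Ndc80, and E2f1 lies higher in K-LM than in T-LM.

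Across all 19 groups, the mean level of 46 members with a value on every array was -0.91 in P0. It ran from -1.31 (SD 0.29, n = 5) in P5 to -0.92 (SD 0.08, n = 5) in P6 for KPT, from -1.41 (SD 0.29, n = 6) in P5 to -1.01 (n = 2) in P2 for T-LM, and from -1.41 in P4 and P5 to -0.9 in P2 for K-LM. Over 65 samples, the median correlation of the deviations from the group mean was 0.26 over 1326 member pairs and 0.35 over pairs of the same role, beside 0.03 over pairs of 7120 genes. The closest pairs were Foxm1 with Mki67 at 0.87, Plk1 (Polo-like kinase) with Cdc20 at 0.86 and Cdt1 (a licensing factor) with Mcm6 at 0.85. Ccnd1 had a median of -0.05 with the other members, and Gins2 -0.15. These correlations share arrays and their RNA index, and are given as a description.

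The wider pathway was described with 110 further genes. Against P0, 2 of 106 genes (1.89%) passed in KPT P6, 7 of 105 (6.67%) in T-LM P6 and 4 of 107 (3.74%) in K-LM P6, each below the 3.88%, 7.31% and 4.83% of all probes. Cdkn2c, the CDK4 and CDK6 inhibitor p18, fell in all 3, with changes of -1.47 (adjusted p = 0.000855), -1.66 (adjusted p = 0.000171) and -1.36 (adjusted p = 0.00612, limma), from P0 readings of -1.4 and -1.87. E2f2, an activating E2F, fell in KPT and T-LM, with changes of -1.82 and -2.36 (adjusted p = 0.00323 and 6.33e-05, limma), and gave -1.51 in K-LM (adjusted p = 0.0385). Ccnd2, cyclin D2, and Cdkn2b, the inhibitor p15, rose in T-LM from below background to at least 6.01-fold and at least 4.21-fold over P0. The rise of Ccnd2 was not particular to T-LM. It gave 3.76 in K-LM, just past the threshold (adjusted p = 0.0119, limma), and 0.54 in KPT (adjusted p = 0.889, limma). At P6, K-LM minus T-LM was -0.19 for Ccnd2 (adjusted p = 0.875, limma).

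Cdkn1a was higher in P1 than in P0 and in the P6 cells of KPT and T-LM. It read -1.32 and -2.39 in P0, -0.91, -0.71, 0.37, 0.33 and -0.13 in KPT P1 and -1.19, 0.3, 0.3, 0.22 and 0.61 in T-LM P1. It read -1.75, -1.28, -1.49, -1.62 and -1.84 in KPT P6 and -1.43, -1.32, -1.44 and -1.72 in T-LM P6. Cdkn1a rose from P0 to P1 by 1.65 for KPT (SE 0.38, adjusted p = 0.00841, limma) and 1.9 for T-LM (SE 0.35, adjusted p = 0.0018, limma), and fell from P1 to P6, with changes of -1.39 (adjusted p = 0.00189) and -1.53 (adjusted p = 0.000551). All P1 samples were above both P0 samples and above every P6 sample of their route, T-LM P1 replicate 1 by the least. Without T-LM P1 replicate 1 the T-LM changes of Cdkn1a were 2.21 (adjusted p = 4.75e-06) and -1.84 (adjusted p = 2.65e-06, limma). From P1 to P6, 7 of 106 further genes (6.6%) passed in each route, below the 11.6% and 9.28% of all probes. Without that sample 4 passed in T-LM, given without the share of all probes. Among the called genes were the retinoblastoma gene Rb1 (-0.75 and -0.87, and -0.82 with adjusted p = 0.0134 in T-LM without that sample), the growth-arrest gene Gadd45b in KPT (-1.64) and the single-strand binding subunit Rpa1 in T-LM (0.85, adjusted p = 0.000431, and 0.93, adjusted p = 0.000193, without that sample, limma).

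In K-LM P6, Cdkn1a read 0.05, -0.16 and 0.13, above every KPT and T-LM P6 sample, 2.98-fold over KPT (log2 1.58, SE 0.21, adjusted p = 2.78e-05, limma) and 2.67-fold over T-LM (adjusted p = 0.000431, limma). Cdkn2a, which encodes the p16 and p19 tumour suppressors, was well above background on all 3 K-LM P6 arrays and on none of KPT P6, T-LM P6 or P0, so that it was at least 3.28-fold higher than KPT, at least 3.03-fold higher than T-LM and at least 2.88-fold higher than P0. In T-LM, Cdkn2a changed by 3.41 from P0 to P1 (adjusted p = 0.0509, limma) and by -2.77 from P1 to P6 (adjusted p = 0.0303, limma). Neither passed, and both rest partly on readings below background. Cdkn2d, an inhibitor of CDK4 and CDK6, was 1.81-fold and 1.74-fold higher. Of the 26 further replication genes tested, 7 (26.9%) were lower in K-LM than in KPT and 7 (26.9%) lower than in T-LM, beside 9.80% and 7.71% of all tested probes, among them the primase subunit Prim1 at -0.92 and -0.62 and the single-strand binding subunit Rpa3 at -0.91 and -0.9. The kinetochore gene Cenpk was lower by -1.09 (adjusted p = 3e-06, limma) and -0.84. Of the 29 further mitosis genes tested, 8 (27.6%) were lower in K-LM than in KPT. Only 1 (3.45%) was lower than in T-LM, under the 7.71% of all tested probes. Of 107 further genes, 26 (24.3%) passed against KPT, 15 (14%) against T-LM and 8 (7.48%) between T-LM and KPT, beside 16.0%, 11.9% and 11.5% of all tested probes.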

How the data were processed

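The deposited scanner files hold 1 array each, with 62976 spots labelled with Cy5, and the red processed signal in them is an intensity that Agilent's Feature Extraction software had corrected for background. After control spots and flagged outliers were left out and spots averaged, 55681 probes remained. The authors' deposited series values are on a log2 scale and equalled the log2 raw median signal after quantile normalisation without background subtraction, to within 0.105. They served as an alternative.

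Levels were log2 intensities minus the 75th percentile of each array over probes well above background on every array, and a probe was tested when at least 2 arrays of its fit had it well above background. Moderated tests were run in limma 3.58.1 under R 4.3.3 (statmod 1.5.0), with Benjamini-Hochberg adjustment over all tested probes and a threshold of 0.01. Fits for KPT and T-LM used the first arrays of P0 and of that route, with P1 samples entering where P1 was compared. Fits for K-LM and for the P6 routes used the repeat arrays too, with a term for the late slide and a random effect of RNA sample (correlation 0.68 and 0.39). Tests were checked on simulated data.

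The members and gene lists were chosen with earlier results of these data known. Named members were those past the threshold and, where fewer than 10 passed, those with the smallest adjusted p up to 10 per comparison. Values per sample were given for the member of each role with the largest change. Of the wider pathway at most 3 called genes per direction and list were eligible, together with genes chosen after their values were seen. The comparisons of P0 with P1 were added after the data were seen. Alternatives were other percentiles, normexp on the median signal with an offset of 50, the series values, other filters, slide and replicate blocks, the RNA index, fewer groups, the late slide alone and leaving out each sample. The number of arrays limits the precision.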

Additional observations from a re-analysis of the deposited data

Results flagged for a closer look

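In 4 of the 99 groups of 4 or more samples checked over the genes with values per sample, 1 sample stood apart from the rest, where chance would set apart about 1 in 20. Ccnd1 in T-LM P1 replicate 1 was -5.95, while the other 4 samples lay between -0.84 and -0.12, and its RNA index was -5 against -6.41 to -5.35. E2f8 in KPT P1 replicate 3 was -2.94, while the others lay between -2.31 and -2.09, and its RNA index was -6.32 against -6.01 to -5.26. Gins1 in T-LM P5 replicate 1 was -2.6, while the others lay between -1.92 and -1.59, and its RNA index was -8.16 against -7.9 to -7. Mki67 in T-LM P4 replicate 1 was 0.19, while the others lay between -0.47 and -0.39, and its RNA index was -6.58 against -7.44 to -6.95. Each of these samples lay outside the range of its group in the index, whose part in the values was not tested.

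At P6, K-LM differed by limma from KPT in 9 of 52 members (17.3%) and from T-LM in 5 of 52 (9.62%). Of all tested probes, 16.0% and 11.9% were called, so the share of the members was near or below that of all probes. T-LM and KPT differed in 0 members by limma, with 6 at an unadjusted p under 0.05, where 11.5% of all probes were called. K-LM minus KPT was -0.64 for Cdc6, -0.56 for Mcm2, -0.79 for Mcm10, -0.74 for Gins1, -0.47 for Rfc3, -0.67 for Rfc4, -0.77 for Mad2l1, -0.69 for Cdc20 and -0.75 for Ndc80. K-LM minus T-LM was 0.63 for E2f1, -0.49 for Gins1, -0.63 for Rfc3, -0.66 for Mad2l1 and -0.93 for Cdc20.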

How the results depend on the processing

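Counts of called members were recomputed under each alternative, the comparisons of P0 with P1 having been added after the data were seen. With the percentile over all probes, the counts were 1 in KPT and 6 in T-LM from P1 to P6, 7 in T-LM from P0 to P1, 1 for T-LM against KPT and 2 for K-LM against T-LM. That scaling moved the median of all probes from 0.142 to -0.272 in T-LM from P0 to P1, from -0.13 to 0.062 in T-LM from P1 to P6, from -0.05 to 0.078 in KPT from P1 to P6 and from -0.021 to 0.111 for K-LM against T-LM. With normexp the counts were 1 in K-LM from P3 to P6 and 1 in KPT from P0 to P1. With the authors' series values they were 2 in K-LM from P0 to P6, 2 in K-LM from P3 to P6, 1 in KPT and 5 in T-LM from P1 to P6. With no filter they were 0 in KPT and 1 in T-LM from P1 to P6, 1 in KPT from P0 to P1, 5 for K-LM against KPT and 1 for K-LM against T-LM. With the filter on all arrays 2 passed in K-LM from P3 to P6. With the slide as a block they were 1 in T-LM and 3 in K-LM from P3 to P6, 2 in K-LM from P0 to P6, 1 for T-LM against KPT and 8 for K-LM against T-LM. With the RNA index they were 3 in T-LM from P0 to P6, 0 in KPT and 8 in T-LM from P1 to P6, and 0 in KPT and 9 in T-LM from P0 to P1. With only the groups compared they were 10 in K-LM from P0 to P6, 3 for K-LM against T-LM and 0 in KPT from P0 to P1. Without the late-slide term they were 2 and 3 in K-LM from P0 and P3 to P6 and 1 for T-LM against KPT, and on the late slide alone 12 in K-LM from P0 to P6. The cause was not tested. Shares of all probes called under these alternatives are not given here, so the counts cannot be read as results about the members.

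With the replicate number as a block, 0 members passed in T-LM from P0 to P6 and in KPT and T-LM from P1 to P6, 1 in KPT and 1 in T-LM from P0 to P1, 5 for K-LM against KPT and 3 for K-LM against T-LM. The numbers did not pair the samples, since correlations of same-numbered samples ran from -0.5 to 0.47 and in no comparison did every pair exceed 0.1.

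Leaving out 1 sample at a time gave 0 to 1 calls in KPT, T-LM and K-LM from P0 to P6. From P3 to P6 it gave 0 to 0 in KPT, 0 to 5 in T-LM and 0 to 5 in K-LM. From P1 to P6 it gave 0 to 4 in KPT and 1 to 3 in T-LM, and from P0 to P1 0 to 2 in KPT and 0 to 3 in T-LM. At P6 it gave 4 to 8 for K-LM against KPT, 0 to 5 for K-LM against T-LM and 0 to 1 for T-LM against KPT. These leave-out counts also come without shares of all probes and cannot be read as results about the members. Over all called members and alternatives, 299 of 463 calls were kept, 164 were lost and 0 changed sign. Against KPT, Gins1, Mcm10 and Mad2l1 were kept in 19 of 19 settings and Rfc3 in 5 of 19. Ccnb1 from P1 to P6 in KPT was kept in 4 of 19.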
